A study of Mus musculus with 16 samples.

Results

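Histone H3 lysine 27 acetylation (H3K27ac) was compared by ChIP-seq between 3T3-L1 preadipocytes transduced with V5-tagged mouse SETD5 and the same cells transduced with the empty vector, at 0 h. The 3T3-L1 line consists of mouse fibroblasts that turn into fat cells in culture. At 0 h the cells were 2 days past confluence and had not yet received MDI, the mixture of methylisobutylxanthine, dexamethasone and insulin that starts differentiation. Both vectors were retroviral, SETD5 was driven by a weak LTR promoter, the transduced cells had been selected as stable lines, and how many independent transductions stand behind each vector is not given in the sources used here. The groups are SETD5 at 0 h (replicates A and B) and Empty at 0 h (replicates A and B), which makes 4 of the 16 libraries of the series. The study describes A and B as biological replicates, and the p-values below measure the spread between these libraries.

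Acetylation of H3K27 marks active enhancers and active promoters, and is removed by histone deacetylases such as HDAC3, which act within NCoR co-repressor complexes. SETD5 is a SET domain protein found with NCoR and HDAC3. Primed enhancers carry H3K4 monomethylation (H3K4me1) without acetylation, and in preadipocytes the enhancers of Pparg and Cebpa, the master regulators of fat cell formation, gain acetylation as differentiation proceeds. The paper describes distal regions of both genes as primed and lacking H3K27ac before differentiation. By principal component analysis it found H3K27ac at 0 h similar between the vectors. Its time course by ChIP-qPCR had H3K27ac at enhancers of both genes very low early and raised at 48 h. The lists used here nevertheless held islands near both genes at 0 h, as given below. The presence of an island is a different measure from such a level. The comparison addresses which regions were acetylated with one vector and not with the other before differentiation was induced.

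Each library is a list of islands, regions in which the caller joined enriched windows of 200 bp, with a score for each island. Islands of the 4 lists that overlapped by at least 1 bp were joined into 42649 loci. A locus with an island in both SETD5 lists and in neither Empty list is called SETD5-only here, and the converse Empty-only. There were 2862 SETD5-only loci and 1241 Empty-only loci, 26601 loci were shared by all 4 lists, and the other 11945 had an island in 1 to 3 lists in another arrangement. Absence of an island means that the region fell below the caller's threshold in that library, not that acetylation was absent.

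The gene that was introduced was examined first. Past the first 30 kb of Setd5 (chr6:113027359-113103429, plus strand), its annotation holds 20 exon blocks. Islands overlapped 14 of them in SETD5 replicate A and 16 in SETD5 replicate B, against 0 in both Empty lists. All 8 islands of replicate A and all 7 of replicate B in this stretch lay over an exon, although exons make up 13.6% of its length. The same stretch held islands over 17 and 18 exon blocks in the SETD5 lists of 48 h and over 0 in the Empty lists of 48 h, so the labels of the vectors and the lists match at both times. The 7 SETD5-only loci within Setd5, of 400 to 3800 bp, all overlap exons, and the transgene carries the coding sequence of these exons, so reads from the provirus and from the endogenous gene cannot be told apart. The shared locus at the Setd5 promoter differed by 0.11 on the log2 score scale (adjusted p = 0.760, limma). The lists also match the labelled cell type. Of 11 preadipocyte and fibroblast markers, 10 had an island at the promoter in all 4 lists, Pdgfra, Col1a1, Dlk1 and Prrx1 among them, and Cd34 had none. Of 7 adipocyte markers only Lep had a promoter island, in all 4 lists. None of 4 myoblast, 4 osteoblast, 4 endothelial and 4 epithelial markers had one, and of the macrophage and chondrocyte markers Csf1r had one in 3 lists and Sox9 in all 4.

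The sequences below are taken from 6 of the loci with the highest scores or largest differences, so that the regions discussed can be read. Each is the 200 bases of the locus, clear of annotated exons, with the most matches to 5 short motifs, on the plus strand of mm9. Capitals mark the matches, on either strand, to TGANTCA (AP-1), TTGCNNAA (C/EBP), GGAATG (TEAD), TGTGGTT (RUNX) and TTCNNNGAA (STAT). In windows of 1000 bases at the centre of all 42649 loci these motifs were found in 30.6%, 38.3%, 47.2%, 21.4% and 29.9%, so a match is common and is only a description.
SETD5-only, Gucy1a2, chr9:3533101-3533300: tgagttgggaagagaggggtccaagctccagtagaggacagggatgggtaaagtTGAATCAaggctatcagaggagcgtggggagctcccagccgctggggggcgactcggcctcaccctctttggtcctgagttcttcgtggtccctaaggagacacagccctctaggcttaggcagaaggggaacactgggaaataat
SETD5-only, Ap1s3, chr1:79572601-79572800: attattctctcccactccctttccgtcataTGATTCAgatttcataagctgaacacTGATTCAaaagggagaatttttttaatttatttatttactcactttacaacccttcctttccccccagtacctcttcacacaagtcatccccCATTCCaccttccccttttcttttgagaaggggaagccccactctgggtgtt
Empty-only, Epha7, chr4:27712491-27712690: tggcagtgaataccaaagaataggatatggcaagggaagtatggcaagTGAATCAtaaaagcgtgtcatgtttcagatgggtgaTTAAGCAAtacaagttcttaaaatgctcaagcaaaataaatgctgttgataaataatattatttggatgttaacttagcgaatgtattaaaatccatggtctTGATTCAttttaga
Empty-only, Adra1a, chr14:67153921-67154120: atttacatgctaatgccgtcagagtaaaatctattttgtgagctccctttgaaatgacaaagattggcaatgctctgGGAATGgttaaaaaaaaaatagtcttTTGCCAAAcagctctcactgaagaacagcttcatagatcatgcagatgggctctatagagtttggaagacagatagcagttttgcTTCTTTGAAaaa
Shared and higher, Znhit6, chr3:145187551-145187750: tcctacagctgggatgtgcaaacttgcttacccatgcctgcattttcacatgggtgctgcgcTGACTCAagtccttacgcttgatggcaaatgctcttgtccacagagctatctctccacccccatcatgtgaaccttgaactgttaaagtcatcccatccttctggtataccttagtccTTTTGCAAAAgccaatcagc
Shared and lower, Tns3, chr11:8119621-8119820: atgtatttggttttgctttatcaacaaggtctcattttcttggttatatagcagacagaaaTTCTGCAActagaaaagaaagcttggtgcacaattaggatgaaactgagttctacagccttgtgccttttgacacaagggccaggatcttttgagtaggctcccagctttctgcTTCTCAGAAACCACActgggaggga
The Empty-only window 1.02 Mb from Epha7 holds 2 AP-1 matches and 1 C/EBP match, and the SETD5-only window near Ap1s3 holds 2 AP-1 matches and 1 TEAD match. The window from the Gucy1a2 promoter locus holds 1 AP-1 match. In the Znhit6 window the 2 C/EBP matches overlap, and in the Tns3 window the STAT and RUNX matches overlap.

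The SETD5 lists held more islands, 39949 and 36604, than the Empty lists, 33704 and 35460. This is 38277 ± 2365 against 34582 ± 1242 (SD, n = 2 each), with no overlap between the vectors, and the exact permutation test gave p = 0.333 (two-sided), the smallest value that 2 against 2 allows. The covered length overlapped between the vectors, at 109 and 120 Mb for SETD5 and 121 and 103 Mb for Empty (exact permutation p = 1). Both SETD5 libraries also had more total reads. Per 1000000 reads the difference in islands turned over, to 1542 and 1883 with SETD5 and 1977 and 1977 with Empty. These are total and not mapped reads, and the number of islands need not rise in proportion to them. The ratio therefore does not correct for depth. Counts of vector-specific loci move with the length of the lists, so they were repeated with equal numbers.

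Of all loci, 6.71% were SETD5-only and 2.91% Empty-only, a ratio of 2.31. With 33704 islands taken from the top of every list, the length of the shortest one, 1674 of 38892 loci (4.3%) were SETD5-only and 1849 (4.75%) were Empty-only, a ratio of 0.905. The ratio thus turned below 1 with equal numbers, and with the top 20000 islands the counts were 1022 and 1248. Shortening the lists also makes loci specific: of the 1849 Empty-only loci with equal numbers, 169 (9.14%) were shared by all 4 full lists and 561 (30.3%) had another arrangement, against 1 and 148 of the 1674 SETD5-only loci. Of the original members, 1525 of 2862 SETD5-only loci (53.3%) and 1119 of 1241 Empty-only loci (90.2%) were specific to the same vector under both definitions, a ratio of 1.36. Both vectors thus kept a set of specific loci when list length was equal. Counts rose when a library was left out, because fewer lists then define a locus: SETD5-only loci numbered 4351 without Empty A, 4420 without SETD5 A and 5789 without SETD5 B, and Empty-only loci 3087 without Empty A, 2221 without Empty B and 2226 without SETD5 A.

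**Figure D1:**
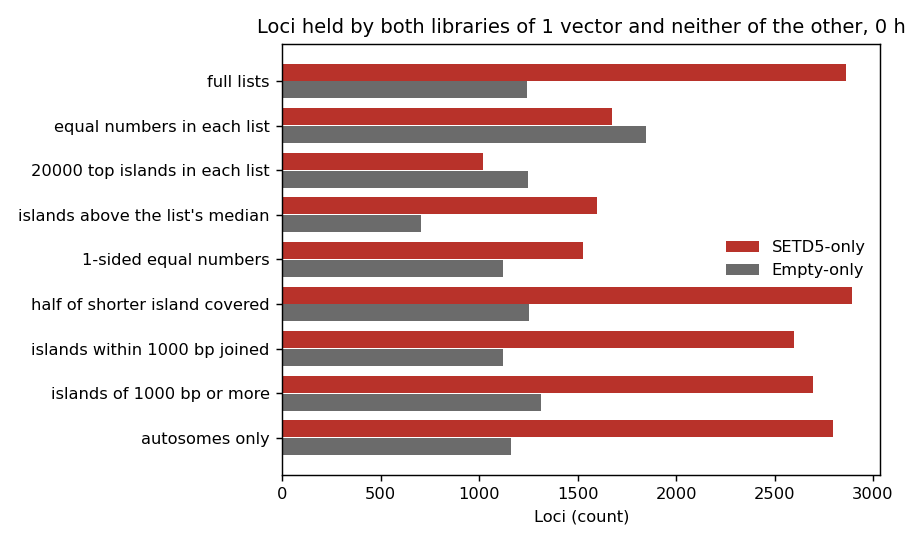
Number of loci (horizontal axis) held by both libraries of 1 vector and by neither of the other at 0 h, for SETD5 (red) and Empty (grey), under 9 definitions named on the vertical axis. The red bar is longer with full lists (2862 against 1241) and shorter with equal numbers (1674 against 1849) and with the top 20000 islands (1022 against 1248). Bars labelled 1-sided equal numbers count the full-list members that were specific to the same vector with equal numbers too.

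Most members were weak. The strength of a member was taken as the lower of its score percentiles in the 2 lists that hold it, and its median was 12.9 for SETD5-only and 13.6 for Empty-only loci. Only 29 SETD5-only loci (1.01%) stood above the 50th percentile in both replicates, against 50 Empty-only loci (4.03%). The strongest SETD5-only locus reached 70.2 and the strongest Empty-only locus 89.6. Median length was 2200 and 2400 bp, and the longest members were 7800 bp (SETD5-only) and 15400 bp (Empty-only). Just outside the rule, 2444 loci were held by both SETD5 lists and 1 Empty list, and in these the lone Empty island had a median percentile of 12.03. The converse, 1365 loci with a lone SETD5 island, had a median of 13.9 for that island.

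**Figure D2:**
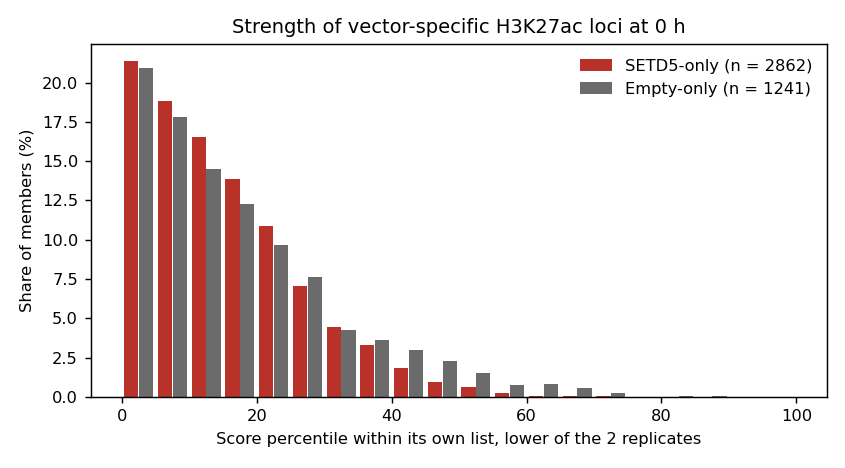
Share of members (vertical axis, %) by score percentile within their own list, lower of both replicates (horizontal axis, bins of 5), for 2862 SETD5-only (red) and 1241 Empty-only loci (grey). Both distributions fall from the left, with medians of 12.9 and 13.6, and only the grey one passes 80.

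Among the 12 strongest SETD5-only loci, 9 had their centre in an intron, 2 of them in the formin gene Fhod3 and 1 at the end of Setd5. The locus in Fhod3 at chr18:25151201-25158800 had scores of 267 and 296 in SETD5 A and B, the 70.2 and 77.1 percentiles, and no island with Empty. A further locus in Fhod3, chr18:25192601-25198600, scored 220 and 224. At the promoter of Gucy1a2, which encodes a subunit of soluble guanylate cyclase, the island chr9:3531801-3535000 scored 258 and 221 with SETD5. In all these loci both SETD5 replicates stood above the 60th percentile of their lists while neither Empty list reached the threshold. An intergenic locus 92.7 kb from Ap1s3, a clathrin adaptor subunit (chr1:79572601-79575800), scored 163 and 134. The locus at the end of Setd5 (chr6:113099401-113101600) scored 206 and 129. The other 7 lay in or near Mpv17l, the deubiquitinase Otud7b, Ccrn4l (nocturnin), Kank4, the methionine sulfoxide reductase Msra, the junction protein gene Cgnl1 and St7l, with strengths of 54.6 to 59.1. All 12 were also found with equal numbers.

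The strongest Empty-only loci scored higher in their lists and lay mostly outside genes, 11 of 12 being intergenic. The strongest was a 15400 bp locus 115 kb from Fam170a (chr18:50553401-50568800), with scores of 1124 in Empty A and 1106 in Empty B, the 89.6 and 90.6 percentiles. A 10800 bp locus 1.02 Mb from Epha7, an ephrin receptor gene (chr4:27707401-27718200), scored 572 and 608. A locus 98.7 kb from Adra1a, the alpha-1A adrenergic receptor gene (chr14:67150801-67155400), scored 361 and 430. Each stood above the 70th percentile in both Empty libraries and had no island in either SETD5 library. Next came loci near Hdhd1a, BC053393, Pard3b, the glycine decarboxylase gene Gldc and the homeobox gene Irx5, a promoter locus of 5031434C07Rik within Lmcd1, 2 loci 561 and 589 kb from Tns3, which encodes a focal adhesion protein, and 1 locus 774 kb from Tbl1xr1, a subunit of the NCoR complex. Their strengths were 65.4 to 71.4, and all 12 were also found with equal numbers.

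The kinds of loci differed in position. Of SETD5-only loci 51.7% had their centre in an intron, 38.9% were intergenic and 7.16% covered a promoter (1000 bp upstream to 100 bp downstream of a coding transcript's start). Of Empty-only loci 26.3% were intronic, 66.6% intergenic and 4.59% at promoters, and over all 42649 loci the shares were 32.4%, 41.3% and 24.5%. The median distance to a protein-coding start site was 32.6 kb for SETD5-only and 59.6 kb for Empty-only loci, against 22.4 kb for all loci. Loci are not replicates, so these shares describe the 4 libraries and were not tested.

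Members also clustered along the genome. In bins of 1 Mb, 40 bins held 5 or more Empty-only loci, 256 of the 1241 (20.6%). The bin from 7 to 8 Mb of chromosome 11, next to Igfbp3 and Tns3, held 17 Empty-only loci among 40 loci and no SETD5-only locus, and the next bin held 13 among 55. With equal numbers 15 and 12 of these were found again. For SETD5, 109 bins held 5 or more members, 682 of 2862 (23.8%). The most was 13 of 51 loci in the bin from 10 to 11 Mb of chromosome 15, around Rai14, followed by 11 each around Nav1, Adamts12, Kalrn and Magi1. By gene body, SETD5-only loci were most numerous in Kalrn, a guanine nucleotide exchange factor (10 of 25 loci), Rbms3 (10 of 43), the protease gene Adamts12 (9 of 16), Atxn1 (8 of 22) and Fhod3 (8 of 16). Empty-only loci were most numerous in Adamtsl1 (7 of 18), Limch1 (7 of 12), Sorbs2 (6 of 18), Hmcn1 (5 of 10) and the synaptotagmin gene Syt1 (5 of 7), and the 4 loci of Sorcs3 were all Empty-only.

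The 48 h H3K27ac libraries, made from the same lines after MDI and not used by the rule, showed how lasting the difference was. Of SETD5-only loci, 45.9% and 48.6% had an island in the SETD5 lists of 48 h (A and B) and 25.4% and 27.5% in the Empty lists. Of Empty-only loci, 27.5% and 26.3% had one in the SETD5 lists and 33.0% and 33.8% in the Empty lists. For each kind the vector that held the island at 0 h was the higher of the 2 vectors at 48 h, with no overlap between libraries, and 2 against 2 allows no exact permutation p under 0.333. For shared loci the shares were 82.3% and 83.2% with SETD5 and 73.3% and 74.8% with Empty, so SETD5 lists held more of these loci too. Specific to SETD5 in both replicates at both times were 424 SETD5-only loci (14.8%), whereas 12 (0.419%) were Empty-specific at 48 h. Of Empty-only loci 97 (7.82%) were Empty-specific and 36 (2.90%) SETD5-specific at 48 h. Of shared loci 6.27% were SETD5-specific and 0.677% Empty-specific at 48 h, when the SETD5 lists were the longer ones (39068 and 39451 islands against 31292 and 33131). No island of 48 h was found at 1332 SETD5-only loci (46.5%) and at 702 Empty-only loci (56.6%), against 13.2% of shared loci. Among the 12 strongest SETD5-only loci 9 had an island in both SETD5 lists and none in the Empty lists of 48 h, the Gucy1a2 promoter and the locus at the end of Setd5 among them. Of the 12 strongest Empty-only loci 3, near Fam170a, Hdhd1a and Pard3b, had an island in both Empty lists and none in the SETD5 lists of 48 h.

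The other antibodies added a description of the same loci. The H3K4me1 list of 0 h, 1 library, overlapped 45.1% of SETD5-only, 42.9% of Empty-only and 69.6% of shared loci. Among loci of 1000 to 2000 bp the shares were 36.8%, 41.1% and 35.6%, so the lead of shared loci was not kept there. The labels name the SETD5-V5 virus for this library, but its list holds no island over the 20 exon blocks of Setd5. Islands of SETD5-V5 itself at 0 h overlapped 15.7% (A) and 5.07% (B) of SETD5-only loci, 4.67% and 1.05% of Empty-only loci and 36.4% and 14.2% of shared loci. At 6 h of MDI the shares were 43.5% and 31.8%, 26.8% and 18.4%, and 72.4% and 53.1%. Over loci of all lengths, the order in every SETD5-V5 library was shared, then SETD5-only, then Empty-only. The lead of shared loci was not kept in every library among loci of 1000 to 2000 bp. There the SETD5-only share was above the shared one in 0 h A (9.26% against 8.57%) and 6 h B (23.95% against 20.99%). It was below in 0 h B (2.65% against 2.74%) and 6 h A (35.5% against 47.3%). Empty-only loci had the lowest share in every SETD5-V5 library there too. Replicate A overlapped more loci than replicate B in each class, and its lists were longer. They held 16054 islands against 6666 at 0 h and 35573 against 27220 at 6 h. A longer locus is more readily overlapped, and shared loci had a median length of 3600 bp.

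**Figure D3:**
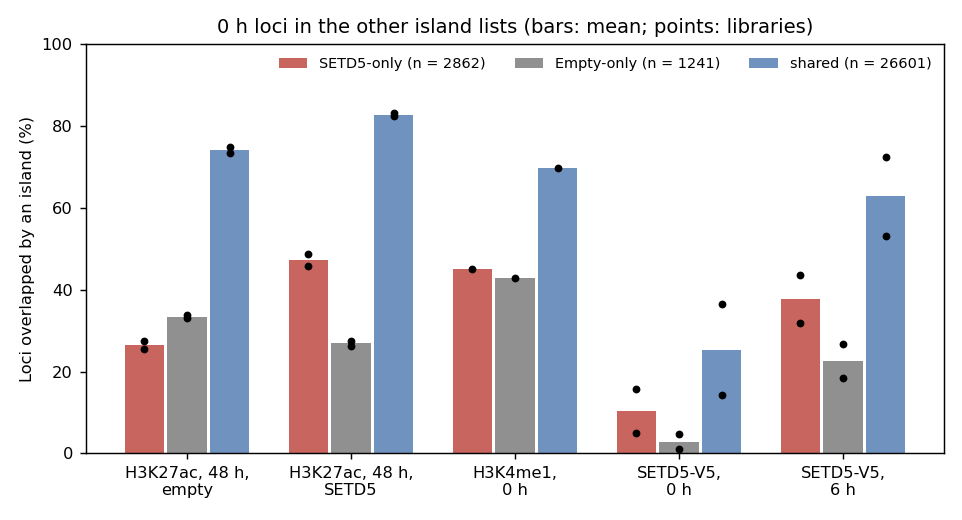
Share of 0 h loci (vertical axis, %) overlapped by an island of 5 other kinds of library, for SETD5-only (red), Empty-only (grey) and shared loci (blue). Bars are means and points single libraries. The red bar is above the grey one in the SETD5 lists of 48 h and in SETD5-V5, and below it in the Empty lists of 48 h.

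Sequence composition was examined in the central 1000 bases. The C/EBP motif TTGCNNAA was found in 48.03% of Empty-only loci, 38.7% of SETD5-only loci and 38.3% of all loci. The STAT motif TTCNNNGAA was found in 39.5%, 30.7% and 29.9%, and the AP-1 motif TGANTCA in 36.4%, 31.4% and 30.6%. The TEAD motif GGAATG was found in 49.8%, 51.9% and 47.2% and the E-box CAGCTG in 38.3%, 47.7% and 42.4%. Median GC content differed too, at 42.7% in Empty-only, 44.1% in SETD5-only and 45.7% in all loci. Its order was the reverse of that of the C/EBP, STAT and AP-1 shares but not of the TEAD and E-box shares, and its part in the motif shares was not tested. Away from promoters the C/EBP shares were 48.7%, 39.5% and 41.4%. A C/EBP match in an Empty-only locus can be read in the Epha7 and Adra1a sequences above.

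The 26601 shared loci allowed a comparison of levels. The log2 summed island score was quantile-normalized over the 4 libraries and fitted with limma. With SETD5 the score was higher at 1408 loci (5.29%) and lower at 2000 loci (7.52%) at an adjusted p under 0.05. The median difference over all shared loci was 0.06, with quartiles of -0.35 and 0.41. Higher loci had a median difference of 1.19 and lower loci of -1.32, and 277 lower but only 74 higher loci differed by more than 4-fold. The number of calls rests on the replicates: without Empty B it was 675 higher and 852 lower, without SETD5 A 245 and 597, and without SETD5 B 212 and 653. When the length covered by islands was used in place of the score, limma called 0 loci in either direction, with 2617 at an unadjusted p under 0.05.

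Called loci of both directions lay at promoters less often than shared loci did. Promoters made up 8.5% of lower, 17.4% of higher and 34.7% of all shared loci. Of shared promoter loci 1.84% were lower and 2.65% higher, with a median difference of 0.18. Of intergenic loci 12.7% were lower and 5.50% higher, with a median of -0.14, and of introns 7.58% and 8.41%. Differences at shared loci followed the vector-specific loci around them. In bins with 5 or more Empty-only loci 43.3% of 485 shared loci were lower and 2.06% higher. In bins with 5 or more SETD5-only loci 12.3% of 2112 shared loci were higher and 3.84% lower. These bins were chosen by the same libraries, so these shares are a description.

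The difference was followed in the libraries of 48 h, which did not enter the fit. Of the 1408 higher loci 696 had islands in all 4 lists of 48 h, and there the median difference was 0.68, with both SETD5 libraries above both Empty libraries at 419 (60.2%) and below at 110 (15.8%). Of the 2000 lower loci 1111 had such islands, with a median of -0.72, and SETD5 was below at 716 (64.4%) and above at 172 (15.5%). Over all 18377 shared loci with islands at 48 h the median was 0.05, and SETD5 was above at 35.2% and below at 31.5%. Some islands of 48 h span several loci and are then counted in full at each. At loci whose islands of 48 h touch no other locus, a choice made after seeing the data, the median was 0.72 over 580 higher loci and -0.66 over 923 lower loci.

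The largest gains lay near genes of varied function. At the locus 48.8 kb from Znhit6, which lies in the collagen gene Col24a1 (chr3:145183801-145190400), the log2 score was 5.52 and 5.10 with Empty and 8.36 and 8.28 with SETD5, a difference of 3.01 ± 0.23 (SE, adjusted p = 0.00549). In an intron of the inositol transporter gene Slc2a13 it was 5.62 and 5.48 against 8.32 and 8.52 (2.87 ± 0.21, adjusted p = 0.00549). Near Ror2, a receptor of Wnt5a, it was 4.74 and 4.55 against 7.86 and 7.03 (2.80 ± 0.31, adjusted p = 0.00724). Before normalization the Empty scores near Ror2 were 31.6 and 20.5, close to the lowest scores of those lists (26.6 and 18.8). At all 3 loci the vectors did not overlap, and only at Ror2 did the SETD5 libraries stand apart from each other. The other 7 loci with the largest gains, in Fhod3 and near Agmat, St7l, Tpcn1, Ddi1, Foxn3 and Slamf9, differed by 2.58 to 2.88. At 48 h 5 of the 10 loci had islands in all 4 lists, and the difference was 3.38 at the Znhit6 locus, 3.74 at Slc2a13, 1.89 at Tpcn1, 1.36 at Foxn3 and 1.37 at Slamf9.

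Of the 10 largest losses, 4 lay between 265 and 441 kb from the start of Tns3. At chr11:8113401-8124000 the log2 score was 10.70 and 10.13 with Empty and 5.99 and 5.83 with SETD5, a difference of -4.50 ± 0.26 (SE, adjusted p = 0.00504). The longest of the 4 loci, 14000 bp, fell from 11.21 and 11.11 to 6.60 and 7.32. Near Fam170a, beside the strongest Empty-only locus, the score was 9.36 and 9.68 against 4.82 and 4.80 (-4.71 ± 0.22, adjusted p = 0.00402). At this locus the summed scores before normalization were 711 and 784 with Empty and 29.5 and 27.2 with SETD5, the latter near the lowest scores of those lists (18.5 and 21.8). The others lay near Sod3, the extracellular superoxide dismutase gene (-4.06), Stmn4 (-4.04), Fam135b (-3.82), Sall1, a zinc finger factor (-3.74), and Lgals12, a galectin gene of adipose tissue (-3.66). At Lgals12 the score was 8.59 and 7.88 with Empty and 4.65 and 4.49 with SETD5. Before normalization the SETD5 scores were 24.7 and 22.7 at Lgals12 and 21.7 and 26.9 near Sod3, also close to the lowest of the SETD5 lists. At 48 h islands of their own in all 4 lists were found at 2 of the 10 loci, both near Tns3, with differences of -4.14 and -3.96. All 20 loci named for the largest differences were called with each library left out in turn.

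**Figure D4:**
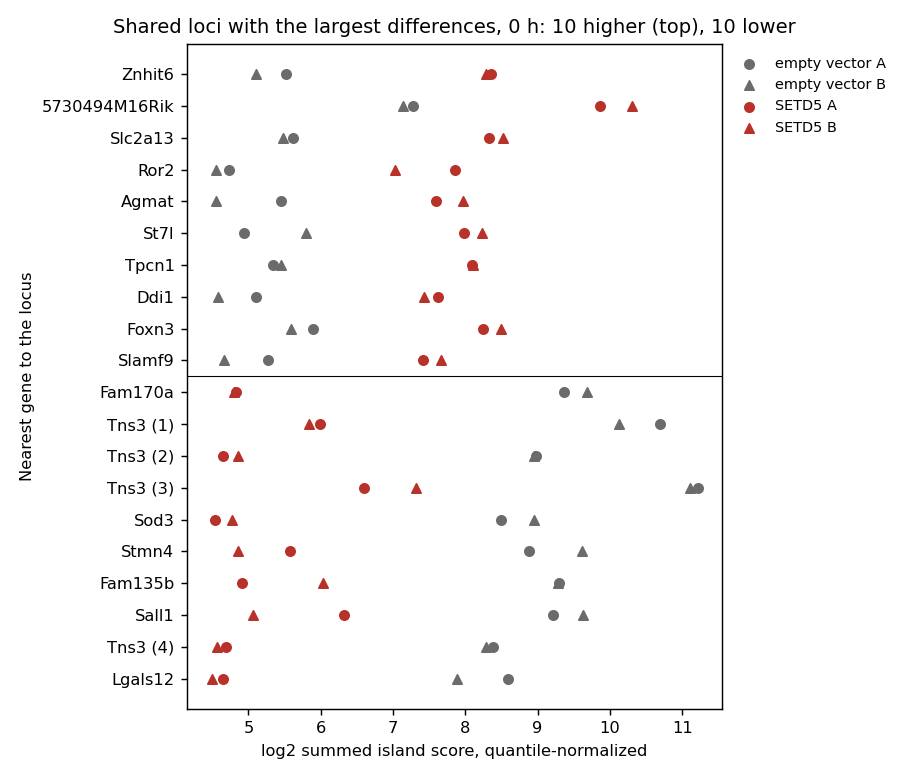
Log2 summed island score, quantile-normalized (horizontal axis), at the 20 shared loci with the largest differences (vertical axis, named by the nearest gene, numbered where a gene occurs more than once) in Empty A and B (grey) and SETD5 A and B (red). In the upper 10 both red points lie to the right of both grey points and in the lower 10 to the left, with differences from -4.71 to 3.01.

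Loci around the master regulators of adipogenesis were examined next. Within 50 kb of Pparg, the nuclear receptor that drives fat cell formation (chr6:115311239-115440419), there were 14 shared loci, and 7 of them were lower with SETD5 and none higher. Upstream, at chr6:115298401-115301600, the log2 score was 8.32 and 8.401 with Empty and 6.68 and 7.06 with SETD5 (-1.49 ± 0.23, adjusted p = 0.0130). The intronic locus 51.0 kb into the gene had 8.20 and 7.99 against 6.66 and 6.67 (-1.44 ± 0.21, adjusted p = 0.0116), and the locus 61.5 kb in, at an internal promoter, 8.62 and 8.03 against 6.87 and 7.13 (-1.32 ± 0.27, adjusted p = 0.0263). At all 7 called loci both SETD5 values lay below both Empty values. The locus over the first promoter had 10.13 and 9.83 against 9.72 and 9.68 (-0.28 ± 0.22, adjusted p = 0.429), and the 38600 bp locus in the 3′ part of the gene differed by -0.33 (adjusted p = 0.356). None of the 7 calls was retained with every library left out in turn. A SETD5-only locus lay 41.4 kb upstream of Pparg, of 3800 bp in SETD5 A and 3400 bp in SETD5 B.

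Of 3 shared loci near Cebpa, which encodes C/EBP-alpha, 2 downstream loci were lower with SETD5. The locus centred 21.6 kb from its start had 9.10 and 9.10 with Empty and 7.89 and 8.13 with SETD5 (-1.09 ± 0.21, adjusted p = 0.0238). The locus at 49.6 kb had 6.86 and 6.69 against 5.40 and 5.34 (-1.40 ± 0.21, adjusted p = 0.0119). The promoter locus had 10.06 and 10.22 against 9.86 and 9.84 (-0.29, adjusted p = 0.388). None of the 5 shared loci around Cebpb and Cebpd, the early C/EBP factors, was called, with differences of -0.33 to 0.45, and a weak Empty-only locus lay 12.2 kb from Cebpb. The call at 21.6 kb was lost with any of the 4 libraries left out, and that at 49.6 kb without SETD5 A or SETD5 B. At 48 h most loci here lay under islands that spanned several of them, and only 2 of the shared loci near Pparg had islands of their own, with differences of -1.67 at the upstream locus and -0.32 at the first promoter.

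**Figure D5:**
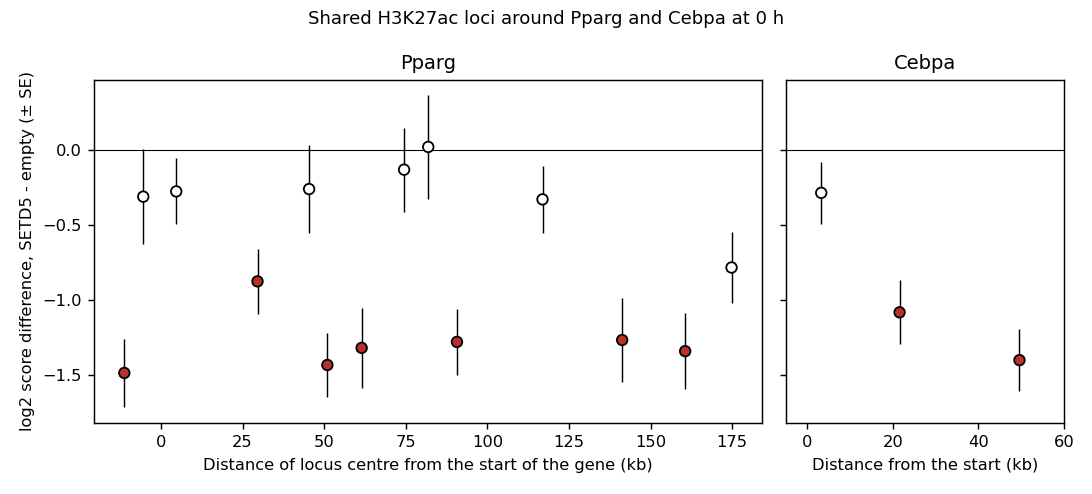
Difference in log2 score, SETD5 minus Empty, with its SE (vertical axis), at shared loci around Pparg (left) and Cebpa (right) by the distance of the locus centre from the start of the gene (horizontal axis, kb). Filled points passed an adjusted p of 0.05. Called loci lie between -1.49 and -0.88. The loci nearest the start of each gene, which is 0 on the horizontal axis, differ by -0.28 (Pparg) and -0.29 (Cebpa). The called Pparg locus at 61.5 kb, at an internal promoter, differs by -1.32.

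Gene lists were examined by the genes with a member as the nearest within 50 kb. Of 12635 protein-coding genes with any locus that near, 11.4% had a SETD5-only locus, 3.84% an Empty-only locus, 6.17% a higher and 6.2% a lower shared locus. Shares of the lists are given beside these and carry no test, and the shared loci named from the lists were chosen after their values were seen. A gene with more loci more readily has a member, and the shares were not adjusted for this. All 12635 genes had 18632 shared loci within 50 kb. The 38 extracellular matrix genes had 136, the 27 adipogenic regulators 76 and the 19 interferon response genes 22.

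Genes of the actin cytoskeleton and of the SRF programme stood on the SETD5 side. Of 25 genes, 9 had a higher locus (36%), 1 a lower locus (4%), 7 a SETD5-only and 2 an Empty-only locus, and the median difference of their 63 shared loci was 0.37. At the promoter of Myl9, a regulatory myosin light chain, the log2 score was 6.35 and 5.76 with Empty and 8.38 and 8.41 with SETD5 (2.34 ± 0.26, adjusted p = 0.00726). Both SETD5 values lay far above both Empty values. Tpm1, Tpm2 and Tagln2 had loci that differed by 1.44, 1.496 and 1.25. SETD5-only loci lay 17.3 kb from the calponin gene Cnn3 (122 and 90.7 in A and B), 21.4 kb from Tpm1 (49.4 and 48.7) and at the Tagln promoter (33.9 and 26.7). On the Empty side were Myocd, the SRF coactivator myocardin, with 3 Empty-only loci and 1 lower shared locus (-2.08 ± 0.23, adjusted p = 0.00708), and Fhl1, with an Empty-only promoter locus (30.7 and 41.1). The count of genes with a higher locus was 5 without Empty A, 5 without Empty B, 2 without SETD5 A and 1 without SETD5 B.

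Of 16 genes of TEAD, YAP and their targets, 4 had a SETD5-only locus (25%), none an Empty-only or lower locus, and 1, Tead1, a higher locus. Tead1 had 3 higher loci, at 4.85 and 4.54 against 6.43 and 5.89 for a promoter locus (1.47 ± 0.26, adjusted p = 0.0190), and SETD5-only loci at 9.8, 16.6 and 46.6 kb. The Empty scores of this promoter locus before normalization, 33.7 and 20.3, were close to the lowest of those lists (26.6 and 18.8). A SETD5-only locus lay 20.6 kb from Ctgf, a YAP target (46.8 and 58.4). Of 38 extracellular matrix genes, 10 had a SETD5-only locus (26.3%), among them Col5a1, Col6a3 and Thbs1, 9 a higher locus (23.7%) and 6 a lower one (15.8%). Without Empty A, Empty B, SETD5 A or SETD5 B, the matrix genes with a higher locus numbered 6, 5, 0 and 0 and those with a lower one 2, 1, 1 and 1. For the TEAD list, 2 genes had a lower locus without Empty A, and none had a higher one without SETD5 A. Sparc, which encodes osteonectin, had a lower locus (-2.02) and Col5a1 a higher one (1.29).

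Adipogenic regulators stood on the other side for shared loci. Of 27 genes, 7 had a lower locus (25.9%) and 2 a higher one (7.41%), whereas 5 had a SETD5-only locus and 1, Cebpb, an Empty-only locus. Besides Pparg, the promoters of Srebf1, a regulator of lipid synthesis (7.54 and 7.31 against 5.61 and 5.70, -1.77 ± 0.21, adjusted p = 0.00784), and Klf5 (-1.34 ± 0.24, adjusted p = 0.0181) were lower. The SETD5 scores at Klf5 before normalization, 18.7 and 25.1, were close to the lowest of those lists (18.5 and 21.8). The promoter of Zfp423, a determinant of preadipocytes, was higher, at 5.39 and 5.84 against 7.80 and 7.42 (2.00 ± 0.26, adjusted p = 0.00892). Genes with a lower locus numbered 4 without Empty A, 4 without Empty B, 1 (Srebf1) without SETD5 A and 2 without SETD5 B. SETD5-only loci lay 7.9 kb from Ebf2 and 13.7 kb from Klf4. Of 22 adipocyte lipid and hormone genes 2, Acsl1 and Fasn, had lower loci, 39.8 to 47.7 kb from their start sites, none a higher one, and Scd1 and Acaca had SETD5-only loci. Without SETD5 A 1 of these lipid genes had a lower locus, and without SETD5 B none.

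Inflammatory and interferon genes had lower loci more often than higher ones. Of 25 inflammatory genes 6 had a lower locus (24%) and 1, Nfkb1, a higher one. The chemokine gene Ccl2 had a locus with 8.92 and 8.76 in Empty and 7.01 and 6.75 in SETD5 (-1.96 ± 0.22, adjusted p = 0.00726), and the promoter of Il6 had 8.72 and 8.74 against 7.37 and 7.54 (-1.27 ± 0.21, adjusted p = 0.0150). Of 19 interferon response genes 3, Mx1, Gbp3 and Xaf1, had a lower promoter locus (15.8%), none a higher one, and Oasl2 had an Empty-only promoter locus. The median difference of the shared loci was -0.33 for the inflammatory and -0.43 for the interferon list, against 0.06 for all shared loci. Without Empty A, Empty B, SETD5 A or SETD5 B, the genes with a lower locus numbered 3, 2, 1 and 1 in the inflammatory list and 1, 0, 0 and 0 in the interferon list.

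Signalling genes moved both ways. Of 27 genes of the TGF-beta and BMP pathways 4 had a higher locus (14.8%), 5 a lower one (18.5%) and 7 a SETD5-only locus. The receptor gene Tgfbr2 had a locus with 5.83 and 6.04 in Empty and 8.22 and 8.10 in SETD5 (2.23 ± 0.21, adjusted p = 0.00622), and the promoter of Grem1, a BMP antagonist, had 10.03 and 10.43 against 8.20 and 8.12 (-2.06 ± 0.23, adjusted p = 0.00726). Of 34 Wnt genes 4 had a higher locus (11.8%), 7 a lower one (20.6%), 6 a SETD5-only locus (17.6%) and 4 an Empty-only locus (11.8%). Sfrp1, a Wnt inhibitor, had a locus at 8.58 and 8.62 against 5.65 and 5.72 (-2.92 ± 0.20, adjusted p = 0.00549), Lef1 a lower promoter locus (-1.80), and the promoter of Rspo3, an R-spondin, was Empty-only (107 and 91.8 in A and B). Of 36 growth factor and receptor genes 7 had an Empty-only locus (19.4%), Pdgfra and Pdgfb among them, 7 a SETD5-only locus (19.4%), 4 a higher and 4 a lower locus (11.1% each), and the promoter of Igfbp3 was lower, at 9.96 and 9.51 against 7.86 and 8.17 (-1.72 ± 0.25, adjusted p = 0.0116). Without Empty A, Empty B, SETD5 A or SETD5 B, the genes with a higher locus numbered 2, 2, 1 and 1 in the TGF-beta list, 4, 2, 1 and 1 in the Wnt list and 0, 1, 1 and 0 in the growth factor list. Those with a lower locus numbered 5, 2, 2 and 2, then 7, 5, 2 and 2, and then 5, 4, 1 and 3.

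The other lists had few members. Of 16 Hox genes with a locus 2 were lower, Hoxc13 and, with the larger loss, the Hoxc6 promoter, at 8.95 and 9.39 against 6.25 and 6.08 (-3.01 ± 0.24, adjusted p = 0.00553), and Hoxc10 had an Empty-only locus 4.2 kb away. Of 16 genes of the SETD5, NCoR-HDAC3, PAF1 and APC/C list none had a lower or Empty-only locus, Setd5 had SETD5-only loci, and Hdac3 had 2 higher loci (1.60 and 1.05). Of 24 cell cycle genes 2 had a higher and 1 a lower locus. Of 27 preadipocyte and anti-adipogenic factors 6 had a SETD5-only locus (22.2%), Gli2 and Prrx1 among them, with 3 higher and 3 lower. Of 13 AP-1 factors 3 had a SETD5-only locus, the strongest of which lay 12.9 kb from Jun (101 and 108). Without SETD5 A or SETD5 B no cell cycle or AP-1 gene had a called locus, no preadipocyte factor had a higher one, and 1 Hox gene had a lower one.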

How the data were processed

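H3K27ac ChIP-seq was analysed in 3T3-L1 cells with SETD5 or Empty vector at 0 h (2 libraries each), with the other 12 lists as described. The authors aligned the 5′ 36 bases of each read to mm9 (ELAND or Bowtie2). They called islands per library by SICER or SICER2 (window 200 bp, gap 400 bp for H3K27ac, E-value 100). The numbers of islands of both A libraries are those stated for SICER2, and the version behind the B libraries is not given in the sources used here; whether an input control was used is not given in the sources used here. The deposited values are the authors' score for each island, with no read counts, so depth is known per library only, and intervals for single islands cannot be given. Scores were ranked as percentiles within a list. Total reads per library, used only for the scaling by reads, were those stated with the study.

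Loci were made by joining islands over at least 1 bp and their number was checked with bedtools 2.31.1. Shared loci were fitted with limma 3.58.1 (R 4.3.3, no covariate, Benjamini-Hochberg 0.05) on log2 summed scores. Libraries were compared by the exact permutation test. GENCODE M1 on NCBIM37, which is mm9, gave genes; models over 3 Mb were not used as hosts, and all list symbols matched. Loci were named by the nearest coding start site: the 12 strongest of each kind, the 10 largest called differences each way, members near list genes, Setd5, Cebpa, Cebpb, Cebpd and Pparg. Members and lists were chosen with earlier results of these data known. Scripts were tested on simulated data. Alternatives were equal and stricter numbers, islands above the median, joining rules, minimum length, autosomes, other scalings and measures, a replicate block and each library left out. No sequence was printed for loci on the chromosome of Fhod3 and Fam170a. Some results are not reported here.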

Additional observations from a re-analysis of the deposited data

How the results depend on the processing

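Differences per 1000000 total reads reversed, to -265 islands and -1.25 Mb of covered length, and this scaling does not correct for depth. Of the full-list SETD5-only loci, 1525 were also SETD5-only with equal numbers. SETD5-only loci numbered 1674 with equal numbers, 1022 with the stricter 20000 and 1601 above each list's median score, and Empty-only loci 706 above the median. With a library left out they ranged from 3948 to 5789 and from 1651 to 3087. The limma calls were 0 and 0 by covered length and 2844 and 3235 with limma-trend, and with a library left out 212 to 958 higher and 597 to 1425 lower; the lone library of a vector is then assumed to vary like the other. Of the 121 called loci of the gene lists and adipogenic regions, 13 were called with each library left out. By covered length the difference reversed at loci of Col5a2 (-0.15), Jun (0.27), Il33 (0.053), Lgr4 (-0.16) and Met (-0.031). The replicate block gave 939 higher and 1485 lower loci, and 69 of these 121 calls. After normalization, same-letter libraries deviated with a correlation of 0.07 over 2 pairs. This cannot show whether libraries of the same letter were prepared together, which is not given in the sources used here. Only per-library depth is known, and weak islands near the threshold limit each presence call.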

Other observations

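Vector-specific loci were spread unevenly over chromosomes. SETD5-only loci made up 3.21% of the loci on chromosome 5 and 9.96% on chromosome 12, and Empty-only loci 1.499% on chromosome 16 and 5.50% on the X chromosome. On chromosome 11, which carries the cluster near Tns3, Empty-only loci (120) outnumbered SETD5-only loci (104), as they did on chromosome 5 (89 against 75) and on the X chromosome (78 against 64). Of all 10295 loci of 1000 to 2000 bp, 1361 were SETD5-only and 428 Empty-only. The SETD5-only share of these was 5.71% on chromosome 5, 18.8% on chromosome 1 and 17.96% on chromosome 12. On the X chromosome 9.47% were SETD5-only and 7.04% Empty-only.

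Shared loci held a GC-rich motif more often than vector-specific loci, with a smaller gap away from promoters. The motif GGGCGGGG, bound by KLF and SP factors, was found in 15.8% of shared loci, 5.49% of SETD5-only and 3.71% of Empty-only loci, and away from promoters in 5.07%, 3.58% and 2.45%. The homeodomain motif TAATTA was found in 20.6%, 23.8% and 27.4%. The list of endogenous SETD5 at 0 h, 1 library with 2132 islands, overlapped 27 SETD5-only (0.943%), 8 Empty-only (0.645%) and 723 shared loci (2.72%), against 2.53% of all loci.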
